A study of Sus scrofa with 6 samples.

Results

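The 8 genes described here, DHCR7, FADS1, FADS2, FADS3, CPT1A, HSD17B4, PNPLA2 and TECR, encode enzymes of cholesterol and fatty acid metabolism and lie on pig chromosome 2. They were chosen by name from that chromosome, with earlier results of these data known. They are 8 of the 1652 genes that could be tested between 3 parthenogenetic (PA) and 3 control (CN) pig embryos. The study compared the 2 groups to find out which genes are expressed from the maternal or the paternal allele. All 6 libraries were made from single whole embryos at embryonic day 21, and all are labelled with the strain Landrace x Yorkshire x Duroc (LYD). PA embryos came from oocytes of LYD ovaries, matured in vitro and activated by electric pulses without sperm, so they are diploid and hold maternal genomes only. They were carried by 2 surrogate gilts, and CN embryos were untreated and came from 2 naturally mated Landrace x Yorkshire gilts, so if all 3 embryos of a group came from those gilts, at least 2 of them shared one. Conception, the source and maturation of the oocytes, embryo transfer and the carrying gilt therefore differ between the groups together with the missing paternal genome, and cannot be told apart.

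Cholesterol is built from acetyl-CoA by a long chain of enzymes. DHCR7 carries out its last step, the reduction of 7-dehydrocholesterol. Polyunsaturated fatty acids are made from dietary precursors by alternating desaturation and elongation, in which FADS2 acts as the Δ6-desaturase and FADS1 as the Δ5-desaturase, while TECR is the reductase that ends each elongation cycle. FADS3, the third desaturase of the cluster, acts on sphingoid bases. Fatty acids are released from stored triacylglycerol by the lipase PNPLA2, enter mitochondria through the carnitine palmitoyltransferase CPT1A, or, when very long or branched, are shortened in peroxisomes by HSD17B4 and its partners. Liver, kidney and muscle are known as tissues that oxidise fatty acids, and the growing brain as one that takes up polyunsaturated fatty acids.

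Each library held between 3100284 and 3573406 estimated counts. Between 82.8% and 92.7% of them lay on annotated genes of chromosome 2 and at most 0.352% on other chromosomes. A single transcript without a place in the annotation, taken as H19, held 6.88% to 16.9%, with the highest share in PA1. Levels are given as TPM, a share of all transcripts corrected for transcript length and scaled to 1000000, which here is relative almost only to chromosome 2. As a check of the labels, IGF2, a paternally expressed gene of the same chromosome, was at 14375 to 19298 TPM in CN embryos and at 278 to 544 TPM in PA embryos. Differences are log2 fold changes of PA over CN from edgeR, called at an adjusted p below 0.05, and groups were also set against each other in TPM by exact permutation, two-sided, where 3 against 3 embryos allow no p below 0.1. In whole embryos, fewer cells of a type and less RNA per cell cannot be told apart.

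The 3 FADS genes stand side by side and are alike in sequence, so the coding stretch in which they are most alike is shown because the finding on FADS1 rests on reads being told apart between them. In Sscrofa11.1, FADS3 lies at chr2:9607627-9627352 on the plus strand, FADS2 at chr2:9633941-9666666 on the minus strand and FADS1 at chr2:9735425-9747405 on the plus strand. The stretch has 60 coding bases from 2 neighbouring exons and encodes the last histidine box of these desaturases. Of the 60 bases 51 are the same in all 3 genes, and capitals mark the bases that are not.
FADS1: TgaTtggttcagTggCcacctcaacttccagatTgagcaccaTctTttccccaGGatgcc
FADS2: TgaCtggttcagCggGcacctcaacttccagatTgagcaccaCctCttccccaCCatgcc
FADS3: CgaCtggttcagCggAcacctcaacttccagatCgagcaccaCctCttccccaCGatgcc
Over the whole coding sequence, identity was 68.4% between FADS1 and FADS2, 64.1% between FADS1 and FADS3 and 72.2% between FADS2 and FADS3. FADS1 shared no run of 31 bases, the default word length of the quantifier's index, with either of the others, and FADS2 and FADS3 shared 3 such runs in overlapping positions of a 33-base stretch. The estimated counts of FADS1 were whole numbers in every embryo, and those of FADS2 and FADS3 were not. FADS2 and FADS3 also share 148 and 817 exon bases with uncharacterised genes of the opposite strand. Those genes held at most 98.1 and 9.22 counts, but the library kit keeps no strand, so reads in the shared bases cannot be told apart.

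Of the 8 genes, CPT1A fell and FADS1 rose in PA embryos, and the other 6 did not pass the test. That is 1 gene higher, where 2.12% of all genes tested were higher, and 1 gene lower, where 4.42% were lower. In either direction 6.54% of the 1652 genes were called, and 8 genes are too few to read a share from. None of the 8 met the study's added criterion of an absolute log2 fold change above 1, which 2.91% of all genes met. At an unadjusted p below 0.05 there were 2 of the 8 and 21.2% of all genes, and DESeq2, which called 10.5% of all genes, called the same 2 genes. PA and CN embryos did not overlap in TPM in 2 of the 8 genes and in 21.6% of all genes tested.

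**Figure D1:**
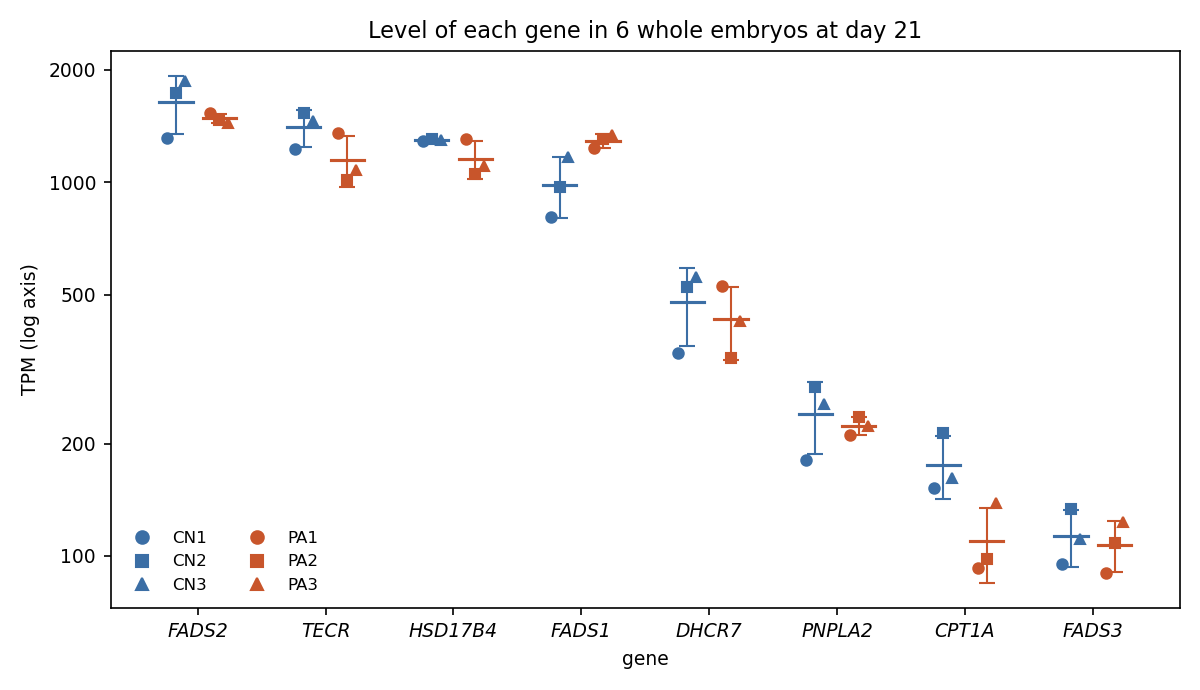
TPM of the 8 genes on a log axis in 3 CN and 3 PA embryos, ordered by the CN mean. Symbols are embryos, long horizontal lines are group means and error bars are SD. Only FADS1, higher in PA, and CPT1A, lower in PA, have groups that do not overlap.

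The 8 genes spanned a wide range of levels. In CN embryos FADS2 was the highest, at a mean of 1637 TPM, above 94.7% of all genes tested, followed by TECR, HSD17B4, FADS1, DHCR7, PNPLA2 and CPT1A. FADS3 was the lowest, at 113 TPM, above 48.6% of genes tested. The ranges of FADS2 and TECR, of TECR and HSD17B4, and of PNPLA2 and CPT1A overlapped between neighbours in this order, and the other neighbours were apart in all CN embryos. In PA embryos FADS1 stood in the second place after FADS2, with no overlap between them, and the ranges of FADS1, HSD17B4 and TECR overlapped from one to the next. CPT1A and FADS3, apart in CN embryos, overlapped in PA embryos. Counts per gene and embryo ranged from 323 for FADS3 to 8019 for HSD17B4. CN1 had the lowest TPM of the CN embryos in all 8 genes, as in 68.1% of all genes tested, and in 6 of the 8 and 41.8% of all genes once TPM was rescaled by TMM factors.

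CPT1A, at chr2:4250642-4293914 on the plus strand, encodes the enzyme that commits long-chain fatty acids to mitochondrial oxidation. Its level was 152, 214 and 162 TPM in CN1 to CN3 and 92.9, 98.1 and 138 TPM in PA1 to PA3. Every PA embryo lay below every CN embryo, and PA3 was closest to the controls. The mean was 176 ± 33.2 TPM (SD, n = 3) in CN and 109.8 ± 24.9 TPM (SD, n = 3) in PA, with an exact permutation p of 0.1. The log2 fold change was -0.61 (SE 0.13, 95% interval -0.91 to -0.31, edgeR adjusted p = 0.0319), or 1.53-fold lower in PA. The direction held whichever embryo was left out, but the adjusted p rose above 0.05 without CN1 (0.0508), CN2 (0.111), CN3 (0.0548), PA1 (0.0665) or PA2 (0.116), and stayed under it only without PA3 (0.0193).

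SLC22A5, the plasma membrane carrier that brings carnitine into cells, was the other tested gene of the carnitine shuttle and beta oxidation on this chromosome. It was listed at 56.3, 75.0 and 65.6 TPM in CN embryos and at 44.3, 43.2 and 53.6 TPM in PA embryos. These groups did not overlap either, but the log2 fold change of -0.41 did not pass the test (edgeR adjusted p = 0.0867), while DESeq2 called it (adjusted p = 0.0398). ESRRA, the estrogen-related receptor alpha, is a nuclear receptor known for its hold on genes of mitochondrial fatty acid oxidation, and it fell in PA embryos. Its level was 388, 449 and 433 TPM in CN and 267, 239.7 and 260.2 TPM in PA, a log2 fold change of -0.65 (SE 0.10, adjusted p = 0.0068). Its call held under each of the 15 other settings and left-out embryos tried, with adjusted p at most 0.0369.

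Of the 5 kidney tubule markers tested, 4 fell, namely SLC34A1, SLC22A8, SLC22A12 and SLC5A12, by log2 fold changes from -2.10 to -4.32, and SLC22A6 did not pass (0.13). The 5 together summed to 535 to 843 TPM in CN embryos and to 69.8 to 196 TPM in PA embryos. PA3 had the highest sum of the PA embryos and also the highest CPT1A. PA1 and PA2 stood in opposite orders, with sums of 122 and 69.8 TPM and CPT1A at 92.9 and 98.1 TPM. Of 4 skeletal muscle markers TNNI2 fell (log2 fold change -1.34), while MYOD1, TNNT3 and ACTN3 did not pass, at -0.43, -0.75 and -0.53. Their sum was 412 to 488 TPM in CN and 231 to 236 TPM in PA. The hepatocyte markers tested, whose values are given with those of PA1, did not pass. The part of these tissues in the CPT1A difference was not tested, and markers on other chromosomes were not analysed here.

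**Figure D2:**
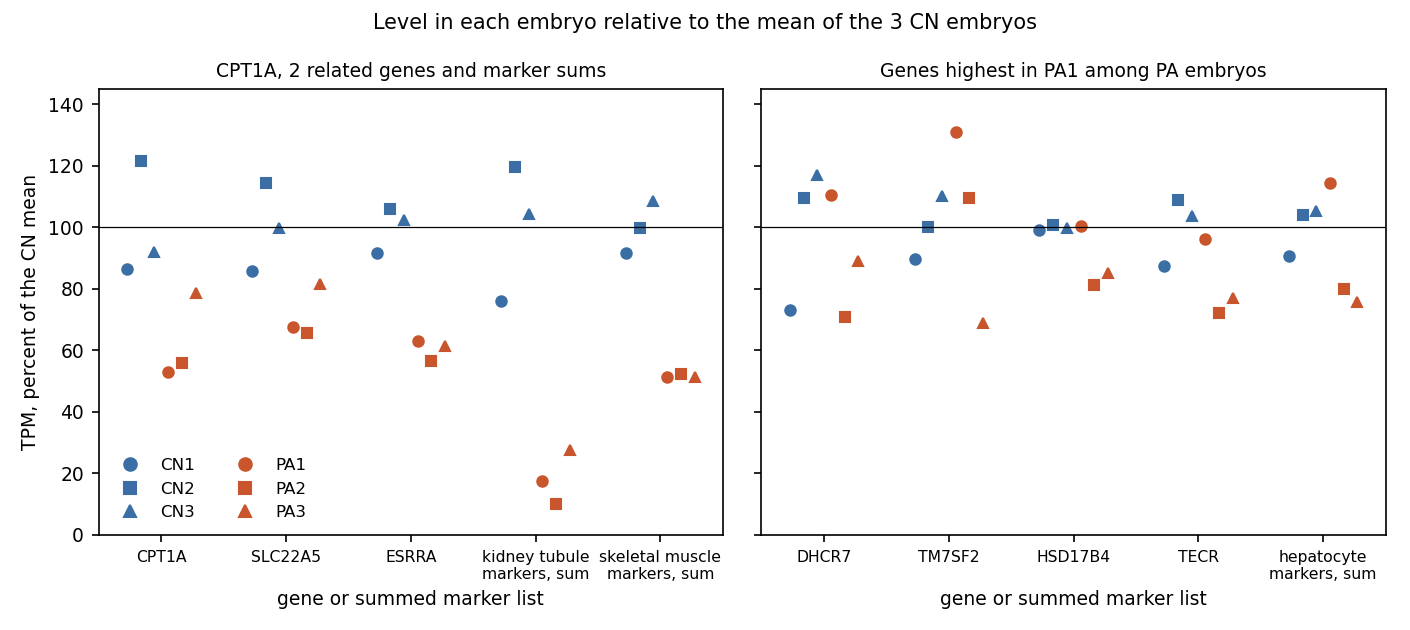
TPM in each embryo as percent of the CN mean, for CPT1A with SLC22A5, ESRRA and summed kidney tubule and skeletal muscle markers (left), and for DHCR7, TM7SF2, HSD17B4, TECR and summed hepatocyte markers (right). In the left panel every PA embryo lies below every CN embryo. The genes of the right panel were picked for being highest in PA1 among the PA embryos, so that order is no finding. FADS2, also highest in PA1 among them, is not shown. The hepatocyte sum is also highest in PA1.

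Among the desaturases, FADS1 rose in PA embryos, while FADS2 and FADS3 did not pass the test. FADS1, the Δ5-desaturase that makes arachidonic and eicosapentaenoic acid, was at 807, 974 and 1173 TPM in CN embryos and at 1233, 1310.2 and 1338 TPM in PA embryos. The lowest PA embryo stood just above the highest CN embryo, CN3, and the PA embryos were close to each other. The mean was 985 ± 183 TPM (SD, n = 3) in CN and 1294 ± 54.5 TPM (SD, n = 3) in PA, with an exact permutation p of 0.1. The log2 fold change was 0.47 (SE 0.11, 95% interval 0.21 to 0.72, edgeR adjusted p = 0.0454), or 1.38-fold higher in PA. The adjusted p rose above 0.05 without CN1 (0.0902), CN2 (0.144), PA1 (0.0857), PA2 (0.136) or PA3 (0.088), fell to 0.0169 without CN3, and was 0.0595 when libraries were scaled by their totals alone. The gene model of FADS1 covers the 1311 coding bases and no more, so reads from its untranslated ends were not counted.

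FADS2, the Δ6-desaturase, was at 1311, 1735 and 1864 TPM in CN embryos and at 1532, 1471 and 1446 TPM in PA embryos. All PA embryos fell inside the range of the CN embryos. Its log2 fold change was -0.06, with a 95% interval of -0.33 to 0.21 (adjusted p = 0.811). FADS3 was at 94.9, 134 and 111 TPM in CN embryos and at 90.2, 108 and 123 TPM in PA embryos, with a log2 fold change of -0.01 and a 95% interval of -0.29 to 0.27 (adjusted p = 0.979). The ranges of both genes overlapped between groups.

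Ratios within an embryo do not depend on how embryos are scaled to each other, and were added after the results above were seen, so they describe the same difference again and are no separate evidence for it. FADS1 over FADS2 was 0.616, 0.561 and 0.629 in CN1 to CN3 and 0.805, 0.89 and 0.925 in PA1 to PA3. The 2 groups did not overlap, at means of 0.602 ± 0.036 (SD, n = 3) and 0.874 ± 0.0618 (SD, n = 3). FADS1 over FADS3 was 8.51, 7.28 and 10.6 in CN and 13.7, 12.1 and 10.8 in PA, where PA3 lay just above CN3. FADS2 over FADS3 averaged 14.5 in CN and 14.1 in PA, and its ranges overlapped. In log2 terms the 3 ratios differed by 0.54, 0.48 and -0.05 between PA and CN, with exact permutation p of 0.1, 0.1 and 0.8, where 0.1 is the smallest that 3 against 3 allow, or 0.15, 0.15 and 0.8 after adjustment over the 3 pairs. Leaving out any one embryo gave 0.49 to 0.59 for the first ratio and 0.36 to 0.63 for the second.

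**Figure D3:**
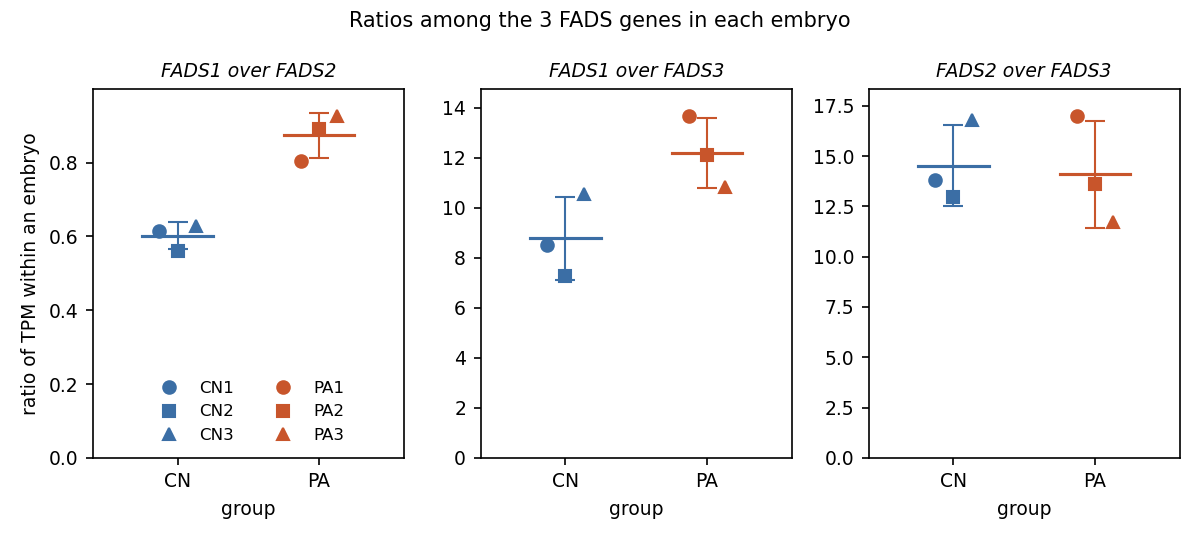
Ratio of TPM between 2 FADS genes within each embryo, for CN and PA. Symbols are embryos, lines are means and error bars are SD. The ratio of FADS1 to FADS2 was 0.561 to 0.629 in CN and 0.805 to 0.925 in PA, and the ratio of FADS2 to FADS3 overlapped.

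Neural markers moved the same way as FADS1. PAX6, SYT13 and ELAVL3, the 3 neural markers tested of 11 in the list, rose in PA embryos with log2 fold changes of 0.84, 0.70 and 0.46. Their sum was 388 to 499 TPM in CN and 562 to 676 TPM in PA. The list was chosen with earlier results of these data known, so the rise of these markers is no fresh observation. The part of neural tissue in the FADS1 difference was not tested.

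DHCR7, the last enzyme of cholesterol synthesis, at chr2:2377352-2391846 on the plus strand, did not pass the test. It was at 349.8, 523 and 559 TPM in CN embryos and at 528, 338 and 426 TPM in PA embryos. The lowest and highest values of each group lay close to those of the other. The log2 fold change was -0.05 (SE 0.20, 95% interval -0.52 to 0.42, adjusted p = 0.901), the widest interval among the 8 genes. TM7SF2, a sterol C14-reductase earlier in the chain, was at 465, 518 and 570.4 TPM in CN and at 678, 567 and 357 TPM in PA, with a log2 fold change of 0.14 (adjusted p = 0.791).

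HSD17B4, the peroxisomal multifunctional enzyme, at chr2:123313445-123401386 on the plus strand, did not pass the test. It was at 1289, 1308 and 1298 TPM in CN embryos and at 1306, 1054 and 1104 TPM in PA embryos. On this scale the controls were close to each other, PA1 was at their level and PA2 and PA3 were below it, while after rescaling by TMM factors the controls were at 1381, 1184 and 1236 and PA1, PA2 and PA3 at 1454, 1076 and 1035. PA1 then lay above all controls. The log2 fold change was -0.09 (95% interval -0.41 to 0.22, adjusted p = 0.744). The tested genes of peroxisome assembly, PEX16 and PEX11G, had log2 fold changes of -0.00 and -0.21 and did not pass.

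TECR, the reductase of the elongation cycle, at chr2:64723698-64752209 on the minus strand, did not pass either and showed the same order of embryos within each group in TPM, though not among the controls after rescaling by TMM factors. It was at 1228, 1531 and 1456 TPM in CN and at 1354, 1013 and 1083 TPM in PA. In TPM PA1 lay within the range of the controls, and PA2 and PA3 lay below all of them. After rescaling by TMM factors PA1, at 1508, lay above all controls, which reached 1387. The log2 fold change was -0.20 (95% interval -0.55 to 0.14, adjusted p = 0.486). Without PA1 it was -0.40 with an adjusted p of 0.0284, and it was -0.26 (0.155) for HSD17B4 and -0.30 (0.292) for DHCR7. HSD17B12, the ketoreductase of the same elongation cycle and the tested gene of its list that is not among the 8, had a log2 fold change of 0.15 (adjusted p = 0.662).

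PA1 was the highest of the PA embryos in TPM in 4 of the 8 genes, DHCR7, FADS2, HSD17B4 and TECR, as in 15.1% of all genes tested. After rescaling by TMM factors it was so in 5 of the 8 and in 36.1% of all genes. These embryos were compared after their values were seen. The 4 hepatocyte markers tested summed to 7698 TPM in PA1, to 5393 and 5102 TPM in PA2 and PA3 and to 6112 to 7086 TPM in CN embryos. Each of the 4, SERPING1, F2, C3 and CREB3L3, was higher in PA1 than in PA2 and PA3, and C3 was at 714 TPM in PA1 against 195 and 103 TPM. edgeR and DESeq2 called 0 of the 4 between PA and CN, 0 had an unadjusted p below 0.05, and log2 fold changes ran from -0.08 to 0.22. PA1 was also the embryo with the highest share of counts on the transcript taken as H19. The part of liver tissue in the levels of these genes was not tested.

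PNPLA2, the adipose triglyceride lipase, at chr2:513065-517962 on the plus strand, was at 181, 283 and 256 TPM in CN embryos and at 211, 235 and 223 TPM in PA embryos. The PA values all fell within the range of the CN values. Its log2 fold change was -0.02, with a 95% interval of -0.30 to 0.26 (adjusted p = 0.937). BSCL2, the seipin of lipid droplet formation, and PLIN3, a lipid droplet coat protein, had log2 fold changes of -0.21 and 0.05 and did not pass. PLIN4, the adipocyte marker of this chromosome, had 3 to 14 counts per embryo and was not tested.

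The 8 genes belong to wider lists of lipid genes, of which 30 genes of chromosome 2 are given here, members included. Among the 22 that are not members edgeR called 1 lower, ESRRA, and 0 higher, which is 4.55% against 6.54% of all genes tested. At an unadjusted p below 0.05 there were 7 of the 22, where 21.2% of all genes tested stood, and DESeq2 called 3 lower and 0 higher, where it called 10.5% of all genes in either direction. The median log2 fold change of the 30 was -0.06 and that of all tested genes 0.02. Of the cholesterol synthesis list edgeR called 0 of 2 genes, with a median log2 fold change of 0.04, and of sterol uptake, transport and sensing 0 of 5, with a median of -0.06. At an unadjusted p below 0.05 there were 0 genes in the first list and 2 in the second, and DESeq2 called 0 in both. STARD4 and OSBP, carriers of sterols between membranes, had log2 fold changes of -0.21 and -0.06 and did not pass.

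The 5 genes of fatty acid desaturation and elongation held 1 that rose, FADS1, which was also the 1 at an unadjusted p below 0.05 and the 1 called by DESeq2, and had a median log2 fold change of -0.01. Of the 3 genes of fatty acid synthesis, uptake and activation, ACSL6, SLC27A1 and SLC27A6, edgeR and DESeq2 called 0, 0 had an unadjusted p below 0.05, and their log2 fold changes were -0.19, 0.19 and 0.12. The mitochondrial list, CPT1A and SLC22A5, had a median of -0.51, with 1 called by edgeR, 2 by DESeq2 and 2 at an unadjusted p below 0.05. The peroxisomal list of 3 genes had a median of -0.09, with 0 called by edgeR or DESeq2 and 0 at an unadjusted p below 0.05. The list of triacylglycerol, lipid droplet and lipolysis genes had a median of -0.21 over 5 genes, with 0 called by edgeR, 1 by DESeq2 and 2 at an unadjusted p below 0.05. Of 6 transcriptional regulators ESRRA was called by edgeR, DESeq2 called 1, and 2 had an unadjusted p below 0.05. NR1H3, the oxysterol receptor LXR alpha, was at 0.25, and CREB3L3, a liver and gut regulator of lipid genes, at -0.07, and neither passed. Of 5 macrophage markers LYVE1 fell (log2 fold change -1.14), and CSF1R, SPI1, MPEG1 and ADGRE1 did not pass, at -0.25 to 0.39. Of the erythroid markers KLF1 and EPOR, at -0.74 and -0.06, edgeR called 0 and DESeq2 called 1, and 1 had an unadjusted p below 0.05.

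**Figure D4:**
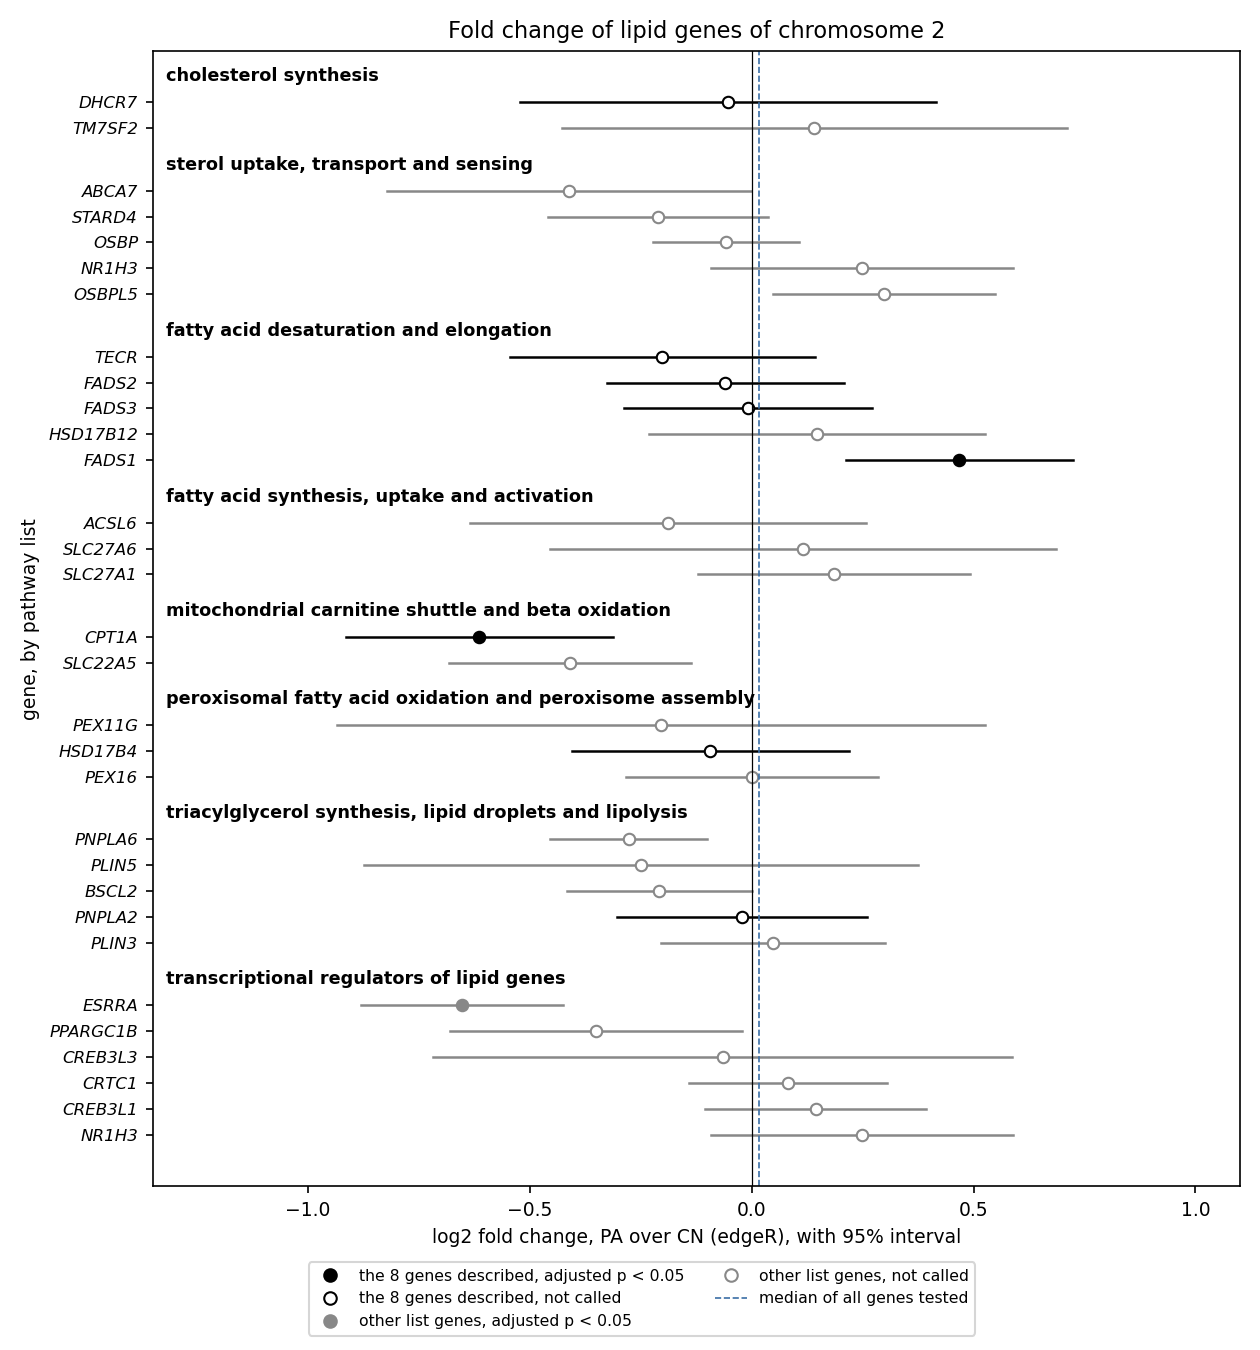
Log2 fold change of PA over CN with its 95% interval for 30 lipid genes of chromosome 2, grouped by list. NR1H3 belongs to 2 lists and appears in both. Black marks the 8 genes described and grey the others. Filled points passed an adjusted p of 0.05, which CPT1A, FADS1 and ESRRA did, and the dashed line is the median of all 1652 genes tested.

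The 250 bases upstream of each annotated start were searched for letters of binding motifs of known lipid regulators, on both strands and in the reference genome. The models of FADS1, CPT1A and FADS2 begin 0, 14 and 35 bases before the start codon, so their windows may not reach the promoter and are not shown. The windows of DHCR7 and TECR are shown, 1 for each pathway, because they hold more than 1 CCAAT box, the motif read by NF-Y beside sterol response elements. The windows of FADS3 and FADS1 also hold 2 each and are not shown. Capitals mark CCAAT or its complement ATTGG and the GC box GGGCGG or its complement CCGCCC. The windows are chr2:2377102-2377351 on the plus strand and chr2:64752210-64752459 on the minus strand of Sscrofa11.1, written 5′ to 3′ along the gene.
DHCR7: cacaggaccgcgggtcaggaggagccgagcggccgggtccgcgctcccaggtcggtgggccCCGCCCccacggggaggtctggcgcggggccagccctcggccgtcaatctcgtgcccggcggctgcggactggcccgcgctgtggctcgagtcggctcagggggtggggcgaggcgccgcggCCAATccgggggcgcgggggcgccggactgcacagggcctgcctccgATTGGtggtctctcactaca
TECR: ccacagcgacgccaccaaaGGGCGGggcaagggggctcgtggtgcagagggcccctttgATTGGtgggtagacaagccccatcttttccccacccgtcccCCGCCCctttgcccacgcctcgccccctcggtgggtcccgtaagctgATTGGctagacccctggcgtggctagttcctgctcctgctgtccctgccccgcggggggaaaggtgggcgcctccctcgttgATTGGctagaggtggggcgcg
In DHCR7 the CCAAT boxes begin 67 and 20 bases before the start, and in TECR 191, 103 and 21 bases before it. CCAAT was found in 7 of the 8 windows, all but that of FADS2, and in 31.9% of 19559 windows of the same length over all genes. GGGCGG was found in 6 of the 8, all but CPT1A and HSD17B4, and in 45.9% of all windows. The sterol response element TCACNCCAC, the ERR element TNAAGGTCA and the E-box CACGTG were in none of the 8 windows, and in 0.803%, 0.787% and 6.39% of all windows. At shares this low, absence from 8 windows is uninformative. The windows of FADS1, CPT1A and FADS2 are counted among the 8, though they may not describe the promoters of these genes. The motifs searched do not overlap each other in the 2 windows shown, and a match of letters is a description only.

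Of the 8 genes 5 have more than 1 annotated transcript. For TECR, HSD17B4 and FADS3 a single transcript held at least 97.5%, 90.0% and 93.3% of the gene's TPM in every embryo. For DHCR7 the reads were divided among 3 models that differ in their first exon alone, and the largest in CN was at 53.2% ± 7.59 (SD, n = 3) in CN and 45.4% ± 10.2 (SD, n = 3) in PA. For PNPLA2 the coding-only model held 52.6% to 56.9% in every embryo, and 2 longer models shared the rest in unequal parts. Of these, the model without coding bases held 14.7% to 45.1%. The longer coding model held 0% to 28.4%, with 0% in PA3. In the 8 transcripts compared, the exact permutation p was at least 0.2, and 0.8 or more after adjustment over them. The division among models that share most exons is an estimate of the quantifier.

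**Figure D5:**
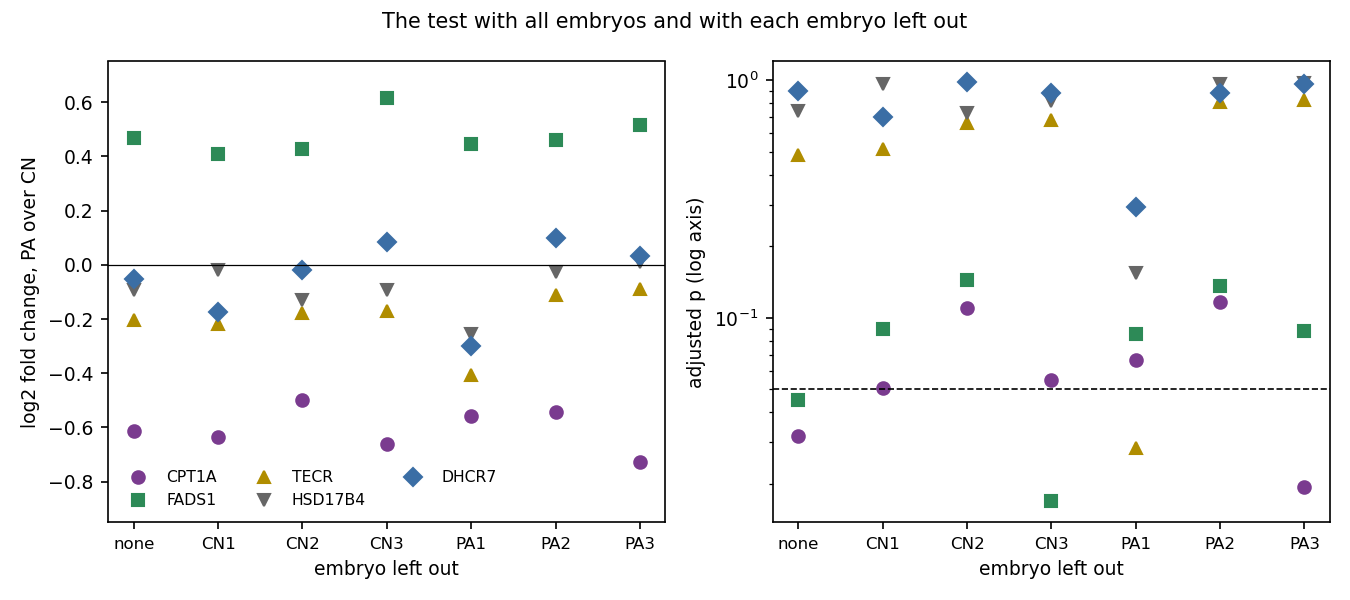
Log2 fold change of PA over CN (left) and adjusted p on a log axis (right) for 5 of the 8 genes, with all embryos and with each embryo left out. The dashed line marks an adjusted p of 0.05. CPT1A and FADS1 keep their directions throughout and cross the line in 5 of 6 cases each, and TECR passes without PA1.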

How the data were processed

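Whole-embryo RNA of 3 PA and 3 CN embryos was sequenced by the authors from poly(A) libraries made with an unstranded kit. The authors quantified reads with Salmon 1.3.0 against the pig transcriptome and deposited, per embryo, estimated counts for 81496 transcripts. The deposited TPM values are scaled to 1000000 per embryo. Aligners and builds named in the submitters' notes were Sscrofa11.1 and STAR 2.7.5. Effective lengths in the same deposited tables gave the length offset. Nothing in the sources used here states a restriction to chromosome 2.

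Transcripts were joined to genes by NCBI Annotation Release 106. Counts were summed per gene, rounded and tested in R 4.3.3 with edgeR 4.0.16 (TMM factors, average transcript length offset, filterByExpr at a minimum count of 10 and total of 15, robust quasi-likelihood test, two-sided, group only). P-values were adjusted by Benjamini-Hochberg over 1652 genes, 1539 of them on chromosome 2. TPM was tested on log2(TPM + 0.1). Labels do not tie embryos to gilts, and the authors used 2 gilts per group for 3 embryos, so embryos may share a litter and p-values measure the spread between these embryos. No 2 libraries of a group agreed within sampling noise (chi-square per degree of freedom 5.8 to 95.1). The procedure was first tested on simulated data. Taking 3 counts as the floor, 0.84 to 0.968 CPM was detectable, which covers counting error only.

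The 8 genes and the lists were chosen with earlier results of these data known. Named were the 8 genes, called list genes, up to 3 list genes with the highest TPM, and tested markers. Alternatives were DESeq2 1.42.0, other scalings, offsets and filters, the replicate number as a block, chromosome 2 alone, and each embryo left out. FADS ratios were added later. HSD17B12 was named after its values were seen. Another 2 genes of the lists were left out of every list count and are not reported here. Sequences came from Sscrofa11.1 and were aligned with MAFFT 7.526.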

Additional observations from a re-analysis of the deposited data

How the results depend on the processing

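CPT1A and FADS1 kept their directions under all 15 alternatives and were called in 9 and 8 of them, and ESRRA was called in all 15. FADS1 lost its call with library totals in place of TMM factors (0.41), where 1 member was called. No pairing of embryos by replicate number is stated. The correlation of deviations was 0.225, 0.112 and 0.0265 between same-numbered embryos and -0.228 to 0.153 between differently numbered ones. These are too few values to decide whether the numbers pair the embryos. With the replicate block CPT1A was at -0.62 and FADS1 at 0.48, with 0 members and 1 pathway list gene called and 104 genes in all. A call lost under the block is not a weaker effect. The causes of these losses were not tested.

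Leaving out 1 embryo at a time, the log2 fold change ranged from -0.73 to -0.50 for CPT1A, 0.41 to 0.62 for FADS1, -0.40 to -0.088 for TECR, -0.30 to 0.10 for DHCR7, -0.14 to 0.050 for FADS2, -0.051 to 0.081 for FADS3, -0.26 to 0.011 for HSD17B4 and -0.12 to 0.070 for PNPLA2. It ranged from -0.53 to 0.14 for CREB3L3, which was called without PA1 (adjusted p 0.04), -0.35 to 0.16 for PEX11G, -0.099 to 0.089 for PEX16, -0.0091 to 0.16 for PLIN3, -0.10 to 0.32 for SLC27A6 and -0.14 to 0.42 for TM7SF2. Without a change of sign it ranged from -0.36 to -0.043 for ACSL6, -0.25 to -0.12 for STARD4, -0.078 to -0.017 for OSBP, -0.26 to -0.13 for BSCL2, 0.082 to 0.30 for SLC27A1 and 0.065 (without PA1) to 0.38 (without PA3) for NR1H3, and these were not called in any of the 15 alternatives. The number of the 8 genes called ranged from 0 to 1, of pathway list genes from 1 to 3 and of all genes from 48 to 128, with 7 to 42 higher and 41 to 86 lower in PA, and fewer samples were fitted each time. The difference in mean log2 TPM ranged from -0.35 to 0.020 for DHCR7, -0.20 to 0.052 for FADS3 and -0.27 to 0.050 for PNPLA2, and that of the FADS2 to FADS3 ratio from -0.19 to 0.073.

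Of the other alternatives, leaving abundant genes out of scaling put FADS3 at 0.0050 and PEX16 at 0.014, no length offset put PEX16 at 0.013, a minimum of 10 counts in every embryo put it at 3.83e-06, and library totals put PLIN3 at -0.016. Leaving out transcripts above 1% of TPM put the log2 TPM difference of FADS2, FADS3 and PNPLA2 at 0.0090, 0.060 and 0.054. DESeq2 called 173 genes (59 higher, 114 lower) and 5 pathway list genes, a fit without a filter on low counts 196 (62 higher, 134 lower, 77 with an absolute log2 fold change above 1), and library totals called 23 genes higher. With 3 embryos per group the exact test of TPM cannot go below 0.1, and depth is almost only that of chromosome 2.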
